A study of Homo sapiens with 6 samples.

Results

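The 150 most abundant processed pseudogenes were followed in CAL27 cells, an established human line of tongue squamous cell carcinoma. They were the genes typed processed_pseudogene in the deposited count table with the highest mean CPM (counts per 1000000 gene counts of a library) over 6 libraries. They were 150 of 3247 processed pseudogenes and of 32353 genes; 262 genes typed transcribed_processed_pseudogene were not taken. Of the libraries, 3 came from cells overexpressing RBM24, which binds RNA and is known for regulating splicing in muscle, and 3 from cells given a control plasmid. All were total RNA read as pairs of 150 nt. The RBM24 vector, the library kit, and whether the replicates were separate cultures or the cells a clone are not stated by the labels; the p-values below therefore reflect only how far these libraries spread, which may be technical.

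Processed pseudogenes are copies of messenger RNAs that the reverse transcriptase of LINE-1 elements has written back into the genome. They usually carry no introns and no promoter of their own, and most are thought to make no protein. Genes with abundant, short messenger RNAs, above all those of ribosomal proteins, have left the most copies. A recent copy differs from its parent gene at few bases, so a read from the parent's messenger RNA can align to the copy as well. A count assigned to a pseudogene therefore depends on how the aligner and the counter treated such reads. The authors aligned to GRCh38 with HISAT2, per the submitters' processing notes; what counted the reads is not stated there. Whether counts at the copies came from their own transcripts or from parent reads was not tested.

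The copies on which the results turn are shown first beside their parents, as stretches of 60 coding bases, 5′ to 3′, from the GENCODE 29 transcripts on GRCh38. Capitals mark bases that differ between copy and parent. RPS2P5 is the most abundant, a copy of RPS2, a protein of the small ribosomal subunit. It lies on the plus strand of chromosome 12 and differs from RPS2 at 11 of 879 aligned coding bases, 3 of them in the stretch chr12:118246856-118246915.
RPS2P5: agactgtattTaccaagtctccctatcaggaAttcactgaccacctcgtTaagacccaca
RPS2: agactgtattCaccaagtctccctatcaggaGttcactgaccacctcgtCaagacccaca

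RPS28P7, the next most abundant, is shown whole because no base tells it from its parent. It lies at chr11:82689559-82689768 on the plus strand, and its 210 bases are those of the coding sequence of RPS28, a small ribosomal subunit protein, with 0 differences.
RPS28P7: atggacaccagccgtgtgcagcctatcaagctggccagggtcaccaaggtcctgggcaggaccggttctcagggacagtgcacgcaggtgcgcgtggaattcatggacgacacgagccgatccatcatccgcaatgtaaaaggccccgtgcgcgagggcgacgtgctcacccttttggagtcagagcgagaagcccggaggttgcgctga

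PPIAP22 and RPS3AP5 are shown because both were high in the same pair of control libraries. PPIAP22 is a copy of PPIA, which encodes cyclophilin A, a prolyl isomerase; its stretch is chr21:18858051-18858110 on the plus strand. That stretch holds both of the 2 differences found in 498 aligned coding bases.
PPIAP22: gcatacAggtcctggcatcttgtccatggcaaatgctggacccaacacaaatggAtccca
PPIA: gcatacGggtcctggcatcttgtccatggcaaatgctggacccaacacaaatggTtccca
RPS3AP5 is a copy of RPS3A, another protein of the small subunit, with 12 substitutions in 786 aligned coding bases; gaps are not counted there, and with gaps and flanking bases its identity over 830 aligned positions was 93.3%. Its stretch is chr10:84560443-84560502 on the plus strand, from the start codon on.
RPS3AP5: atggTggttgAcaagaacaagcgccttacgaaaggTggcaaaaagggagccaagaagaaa
RPS3A: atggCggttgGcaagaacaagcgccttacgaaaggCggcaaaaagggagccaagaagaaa

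RP11-475C16.1 and EEF1A1P6 are shown because each was high in a single RBM24 library. RP11-475C16.1 carries only a clone name and matched RPL27A, a protein of the large ribosomal subunit, with 6 differences in 447 aligned bases, 5 of them in chr6:153282357-153282416 on the minus strand.
RP11-475C16.1: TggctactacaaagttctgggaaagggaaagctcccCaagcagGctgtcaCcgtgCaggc
RPL27A: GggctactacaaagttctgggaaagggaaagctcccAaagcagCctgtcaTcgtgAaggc
EEF1A1P6 is a copy of EEF1A1, the elongation factor that brings aminoacyl-tRNA to the ribosome, with 7 differences in 1384 aligned bases. The stretch shown is chr7:22511680-22511739 on the minus strand.
EEF1A1P6: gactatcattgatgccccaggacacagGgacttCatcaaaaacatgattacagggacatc
EEF1A1: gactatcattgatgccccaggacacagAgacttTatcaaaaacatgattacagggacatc

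RPL13AP25 and RPL3P4 stand for the ribosomal protein copies that were high in control library 1. RPL13AP25 has 14 differences from RPL13A in 612 aligned bases, with 6 in chr13:54441067-54441126 on the minus strand. RPL3P4 is a partial copy of RPL3, with 2 differences in 423 aligned bases, both in chr14:98973194-98973253 on the minus strand.
RPL13AP25: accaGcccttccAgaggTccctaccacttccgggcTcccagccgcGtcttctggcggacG
RPL13A: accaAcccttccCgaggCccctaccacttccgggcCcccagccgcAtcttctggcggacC
RPL3P4: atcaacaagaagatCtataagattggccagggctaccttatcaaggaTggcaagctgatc
RPL3: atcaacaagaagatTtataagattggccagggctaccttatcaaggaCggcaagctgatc

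The RBM24 libraries held 68804210, 53558773 and 60589183 gene counts, and the control libraries 56105482, 55139782 and 62156648. RBM24 itself had 126, 110 and 126 CPM in the RBM24 libraries, against 2.30, 2.88 and 3.54 CPM in the control libraries. Squamous epithelial markers varied in level. Mean levels were 662 CPM for KRT5, 444 for SFN, 306 for EPCAM, 214 for CDH1, 114 for TP63 and 71.3 for KRT17. KRT6A, DSG3 and KRT14 were lower, at 28.0, 11.4 and 4.265 CPM. Markers of immune cells, fibroblasts and endothelium were mixed. PTPRC, COL3A1 and KDR had mean levels of 0.009, 0.005 and 0.014 CPM. CD14, COL1A1, CDH5 and PDGFRB had 18.6, 11.1, 9.45 and 3.42 CPM, the first 3 of them above KRT14. The highest of the remaining markers of these cell types was COL1A2 at 0.742 CPM. Control library 1 stood apart from the rest in its small structured RNAs, which took 0.0410% of its counts, against 0.00798%, 0.00681% and 0.00701% in the RBM24 libraries and 0.00657% and 0.00602% in the other control libraries.

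Ribosomal protein copies dominated the 150. Of the 105 members named by a parent symbol followed by P and a number, 16 were named for small subunit proteins and took 52.5% of the members' summed mean CPM. Another 26 named for large subunit proteins took 11.0%. The other named groups were 7 copies of translation factors, 7 of chromatin and nucleolar proteins, 6 of chaperones and cyclophilin, 6 of RNA-binding proteins, 5 of ferritin heavy chain, 3 of nuclear-encoded mitochondrial proteins, 2 of glycolytic enzymes and 24 of other genes, and the rest included 1 copy each of a mitochondrial-genome gene and a keratin. These groups follow fixed patterns in the parent symbol and need not hold every copy of a class. MRPL45P1, a copy of MRPL45, counts among the other genes, for one. The remaining 45 members have names of another form, 41 of them clone names. By sequence, 144 members matched a protein-coding transcript, and 67 matched a ribosomal protein gene, among them 25 of the 41 with clone names. The parent in the name was the best match for 100 of the members.

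A few copies held most of the counts. RPS2P5 alone took 37.8% of the members' summed mean CPM and the 10 most abundant took 64.2%, while the median member had a mean of 1.48 CPM. Mean levels of at least 10 CPM were reached by 12 members, of at least 5 by 32 and of at least 1 by 109. The last members inside the list were DFFBP1 at 0.698, RPL32P18 at 0.690 and MT1P3 at 0.684 CPM, and the first pseudogenes outside it were FTH1P7 at 0.682, GOT2P2 at 0.673 and CYCSP6 at 0.673 CPM.

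**Figure D1:**
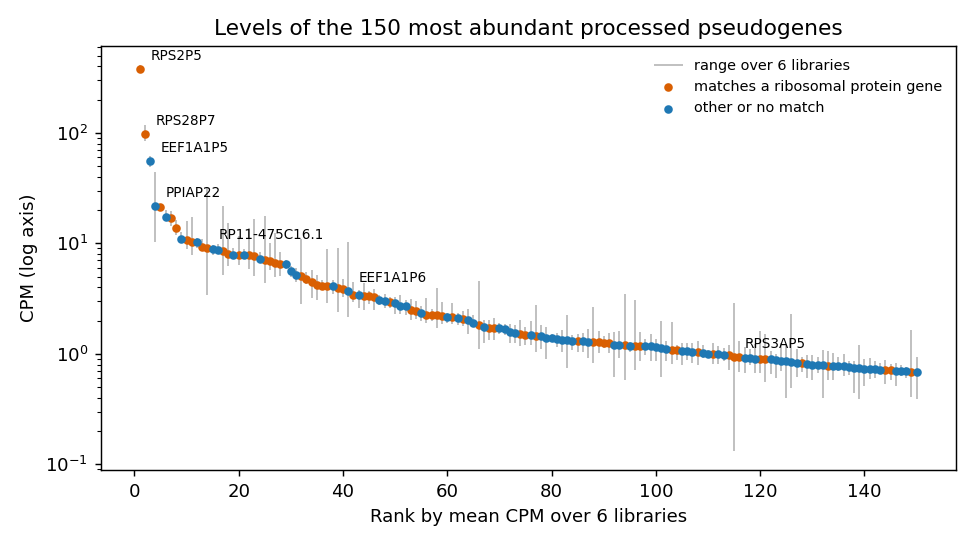
CPM (log axis) of the 150 processed pseudogenes by rank of their mean over 6 libraries; points are means, grey lines the range over the 6 libraries, and orange marks members that match a ribosomal protein gene. RPS2P5, at a mean of 381 CPM, stands above the rest, and RPS3AP5, PPIAP22, RP11-475C16.1 and EEF1A1P6 have long ranges.

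Levels of 6 of the 12 most abundant copies follow; others of the 12, among them PPIAP22 and RP11-466H18.1 (17.4 CPM in control library 1, between 7.92 and 9.54 CPM in the rest), varied more. RPS2P5 had 400, 376 and 354 CPM in the RBM24 libraries, against 387, 410 and 360 CPM in the control libraries. RPS28P7 had 96.9, 95.8 and 84.4 CPM in the RBM24 libraries, against 86.9, 117 and 101 CPM in the control libraries. RP11-408P14.1, which matched RPL6 of the large subunit, had 21.4, 20.7 and 21.9 CPM in the RBM24 libraries, against 22.1, 21.8 and 21.0 CPM in the control libraries. In all 3 the groups overlapped. HMGB1P6, a copy of the gene of a chromatin protein, averaged 16.7 ± 0.373 CPM in the RBM24 libraries and 18.2 ± 1.67 CPM in the control libraries (SD, n = 3 each), again with overlap. FTH1P8, a copy of ferritin heavy chain, which stores iron, averaged 10.3 ± 1.07 CPM in the RBM24 libraries and 10.1 ± 0.453 CPM in the control libraries (SD, n = 3 each). EEF1A1P5 had 48.9, 57.5 and 51.8 CPM in the RBM24 libraries, against 61.7, 59.1 and 57.8 CPM in the control libraries. Here the RBM24 libraries all lay below the control libraries.

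Several parents had more than 1 copy among the members, and the copies did not sit at one level. FTH1 had 5 copies, at mean levels between FTH1P8 with 18.4 FPKM and FTH1P11 with 1.31 FPKM, where FPKM is the deposited level, scaled by gene length and library size. HNRNPA1, PPIA, RPS3A and RPSA had 4 copies each, and EEF1A1, RPL13A and RPL21 had 3. These numbers go by the parent in the name and leave out members with clone names. RPL17, for one, was matched by RP4-706A16.3, RP11-592N21.1 and RP11-20O24.4. Among the EEF1A1 copies, EEF1A1P5 had a mean of 37.4 FPKM, EEF1A1P6 2.46 FPKM and EEF1A1P13 0.748 FPKM. Among the PPIA copies, PPIAP22 had a mean of 40.3 FPKM, and PPIAP29, PPIAP26 and PPIAP31 had 2.23, 1.74 and 1.49 FPKM. The PPIAP22 mean spans unlike libraries, with 44.1 and 44.0 CPM in control libraries 1 and 2 and between 10.2 and 11.2 CPM in the rest.

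Set against their parents per length, most copies were faint. Over 144 members with a parent, the median mean FPKM was 1.81% of the parent's, 51 members were under 1% and 24 were above 10%. MTND4P12, a nuclear copy of the mitochondrial gene MT-ND4, was lowest, at 0.00984%. RPS2P5 stood at 33.5%, with a mean of 401 FPKM against 1198 FPKM for RPS2. HMGB1P6 stood at 42.9% of HMGB1, and RCN1P2 at 20.5% of RCN1, which encodes a calcium-binding protein of the endoplasmic reticulum. PPIAP22 stood at 10.2% of PPIA, a mean over its high and low libraries that describes neither.

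In 5 members the copy was listed above its parent. RPS28P7 had a mean of 428 FPKM, against 142 FPKM for RPS28, or 302%; the gene lengths the authors used for FPKM are not stated. The others were RP11-451F20.1 at 422% of CHN1, ZNF204P at 234% of ZNF184, RP11-425L10.1 at 215% of RPS10 and GEMIN8P4 at 204% of GEMIN8. In 4 of these 5 pairs the parent itself was low, between 0.285 FPKM for CHN1 and 3.65 FPKM for RPS10. The entries of RPS10 and of RPL17, at 6.34 FPKM, were out of line with the other ribosomal protein parents. The next lowest of these was RPL15 at 83.3 FPKM. RP4-706A16.3, RP11-592N21.1 and RP11-20O24.4, at 64.1%, 31.5% and 18.7% of RPL17, were thus above 10% of a low parent. Why the RPS10 and RPL17 entries were low was not tested. ZNF204P matched ZNF184, a zinc finger gene, at only 68.9% identity, and RP11-425L10.1 matched RPS10 at 99.6%.

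Identity to the best matching transcript had a median of 98.1%; 73 members reached 98%, 8 were identical over the match, and 15 were under 90%. Of the 150, 148 are annotated as a single exon and 2 have 2 exons, with a median of 647 exonic bases. A window of 150 bases, the length of a read, was used to ask how much of a member occurs unchanged in a transcript of another gene. Both strands were searched, and genes overlapping the member were included, so a shared window need not lie in the parent. In 7 members all such windows did, namely RPS28P7, RP11-466H18.1, RPL21P16, H3P6, HTATSF1P2, RPL39P3 and FAM3C2P. In 57 none did, and the median member shared 6.39% of its windows. HTATSF1P2 had only 70.5% identity to HTATSF1 and lies over an exon of NQO2 on the opposite strand. The 57 members with no shared window had a median mean level of 1.17 CPM and the other 93, which include 2 shorter than a window, one of 2.36 CPM.

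**Figure D2:**
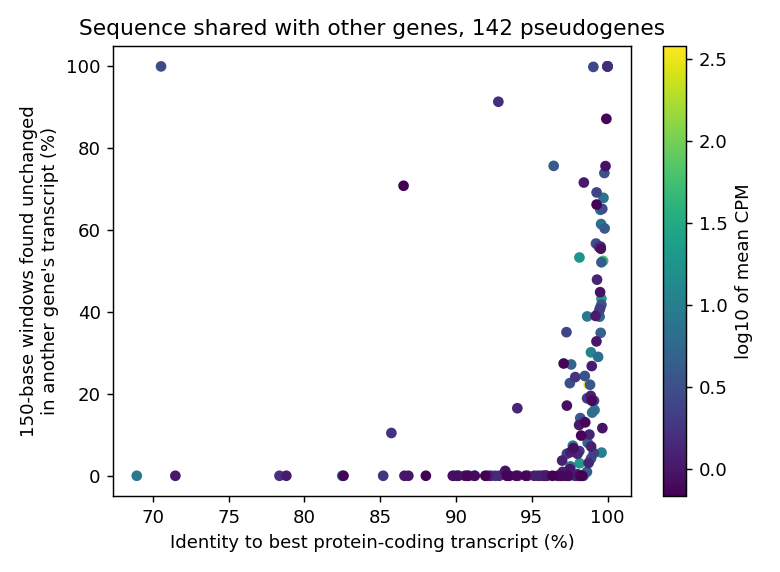
Percent of 150-base windows of each member found unchanged in another gene's GENCODE 29 transcript, against percent identity to its best protein-coding match, for 142 members with both values; colour is log10 of mean CPM. Shared windows were frequent near 100% identity, and many members under 98% shared none.

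By GENCODE 29, 75 members lie outside any other counted gene, 30 lie in an intron and 5 over an exon of a gene on the same strand, and 32 and 8 lie in an intron or over an exon of a gene on the opposite strand. For 20 members in such a same-strand intron and 4 over such an exon the other gene had the higher count, so their counts also depend on how overlaps were counted. RPS2P5 and HMGB1P6 lie opposite introns of TAOK3 and THSD4. PPIAP22, RPS3AP5 and RP11-475C16.1 lie in no other counted gene. EEF1A1P6 lies in an intron of STEAP1B on the same strand, and STEAP1B had a mean of 0.458 CPM.

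Single libraries were then compared with the rest. The departure of a library is its log2 CPM (edgeR, TMM-scaled, prior count 2) minus the median of the other 5, and a departure was counted when it was past 1 in size, a 2-fold difference. In control library 1, 22 members (14.7%) lay above the others by that much and 0 below. Over all 17887 tested genes the share above was 0.699% and the share below 1.03%. In RBM24 libraries 1, 2 and 3 there were 1, 1 and 0 members above, against 0.391%, 0.408% and 0.33% of all tested genes, and 0 below, against 0.391%, 0.57% and 0.414%. Control library 2 had 2 above, against 0.184% of all tested genes, and 0 below, against 0.811%. Control library 3 had 0 above, against 0.179%, and 3 below, against 0.917%. Those 3 were PPIAP29, LDHAP7 and HSPA8P1, all at low levels of at most 1.58 CPM in any library.

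**Figure D3:**
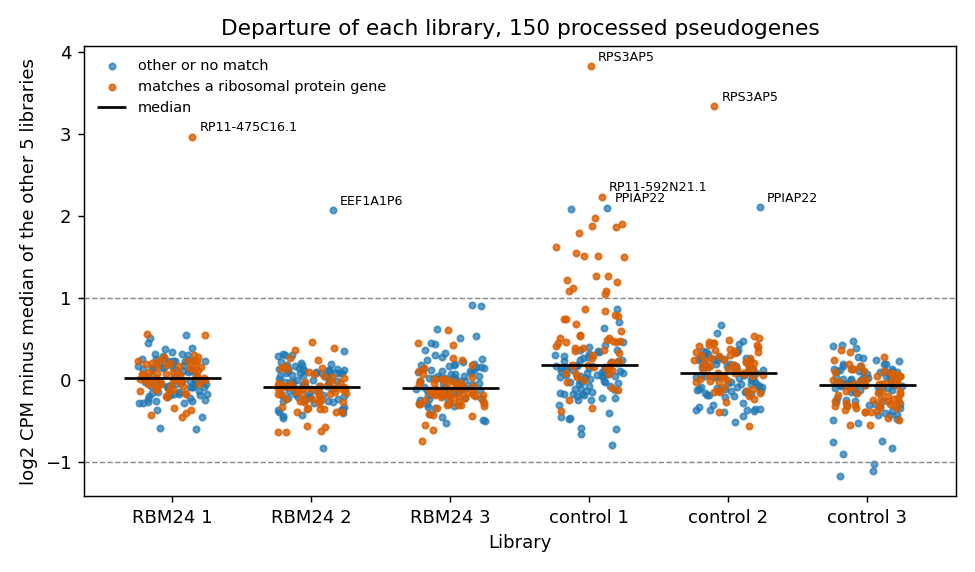
Departure of each library from the median of the other 5 (log2 CPM) for the 150 members; orange members match a ribosomal protein gene, black bars are medians and dashed lines mark 1 in either direction. Control library 1 has a spread of orange points above the upper line, and RBM24 libraries 1 and 2 have 1 member each above it.

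The members high in control library 1 were nearly all copies of ribosomal protein genes. Of the 67 members that match such a gene, 20 (29.9%) were past 1, against 2 of the other 83 (2.41%), which were PPIAP22 and GMPSP1, a copy of the gene of GMP synthetase. The 20 comprised 5 named for small subunit proteins, 8 for large subunit proteins and 7 with clone names. Over the 22 members the departures lay between 1.04 and 3.83, with a median of 1.53. Their parents had departures between -0.15 and 0.33 in the same library, with a median of 0.15. Control library 1 also held 5.97 times the small structured RNA share of the mean of the other 5 libraries; its part in the high pseudogene counts was not tested. Among the other 266 tested processed pseudogenes, 9 (3.38%) were above and 11 (4.14%) below by more than 1 in that library. The members were chosen by a mean that includes control library 1, which favours genes high in it. GMPSP1 and RPL32P18 reached the list only through that library, with 2.30 and 1.66 CPM there. In every other library they had at most 0.654 and 0.617 CPM, below the mean of 0.684 CPM of the last member. RPS3AP5 reached it only through control libraries 1 and 2. The departures of these members in control library 1 are therefore not independent of the choice.

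RPL13AP25 had 6.09, 5.21 and 6.02 CPM in the RBM24 libraries, against 21.8, 6.35 and 5.53 CPM in the control libraries. RPL3P4 had 4.97, 4.65 and 4.34 CPM in the RBM24 libraries, against 17.7, 5.64 and 5.00 CPM in the control libraries. RP11-592N21.1, which matched RPL17 of the large subunit, had 0.858, 0.878 and 0.710 CPM in the RBM24 libraries, against 3.48, 0.707 and 0.579 CPM in the control libraries. In each of the 3, control library 1 was high and the other 5 libraries lay together. Copies that share a parent differed in this. RPL13AP20 had 1.66, 2.04 and 1.32 CPM in the RBM24 libraries, against 1.43, 1.41 and 1.17 CPM in the control libraries. RPL21P28 had 7.25, 6.27 and 6.82 CPM in the RBM24 libraries, against 5.04, 8.27 and 5.70 CPM in the control libraries. RPL21P16, in contrast, had 7.21, 6.46 and 6.16 CPM in the RBM24 libraries, against 13.7, 7.40 and 5.84 CPM in the control libraries. The 22 members had a median identity to their match of 98.7%, against 97.8% for the other members with a match, and shared a median of 7.70% of their 150-base windows, against 5.44%.

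PPIAP22 and RPS3AP5 were high in control libraries 1 and 2 together. PPIAP22 had 10.5, 11.2 and 10.3 CPM in the RBM24 libraries, against 44.1, 44.0 and 10.2 CPM in the control libraries. RPS3AP5 had 12, 13 and 8 counts in the RBM24 libraries, against 161, 112 and 11 counts in the control libraries. Control library 3 thus lay with the RBM24 libraries in both, so the groups overlapped. These were 2 of 17887 tested genes in which control libraries 1 and 2 both lay above all the others by more than 1 on the log2 scale, and no other gene did; the gaps were 2.95 for RPS3AP5 and 2.02 for PPIAP22. The parents did not show it: PPIA had 401, 402 and 383 FPKM in the RBM24 libraries, against 387, 408 and 394 FPKM in the control libraries, and RPS3A had 563, 537 and 511 FPKM in the RBM24 libraries, against 662, 588 and 558 FPKM in the control libraries.

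RP11-475C16.1 and EEF1A1P6 were each high in 1 RBM24 library. RP11-475C16.1 had 32.1, 3.47 and 3.42 CPM in the RBM24 libraries, against 6.04, 5.01 and 4.10 CPM in the control libraries. Its departure of 2.97 in RBM24 library 1 ranked 2 by size among 17887 tested genes, and rested on 2206 counts. Its parent RPL27A had 163, 157 and 147 FPKM in the RBM24 libraries, against 168, 171 and 154 FPKM in the control libraries. EEF1A1P6 had 2.38, 10.2 and 2.15 CPM in the RBM24 libraries, against 2.33, 2.59 and 2.43 CPM in the control libraries. Its departure in RBM24 library 2 was 2.07 and ranked 7 there, while EEF1A1 had 704, 722 and 718 FPKM in the RBM24 libraries, against 780, 801 and 790 FPKM in the control libraries.

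**Figure D4:**
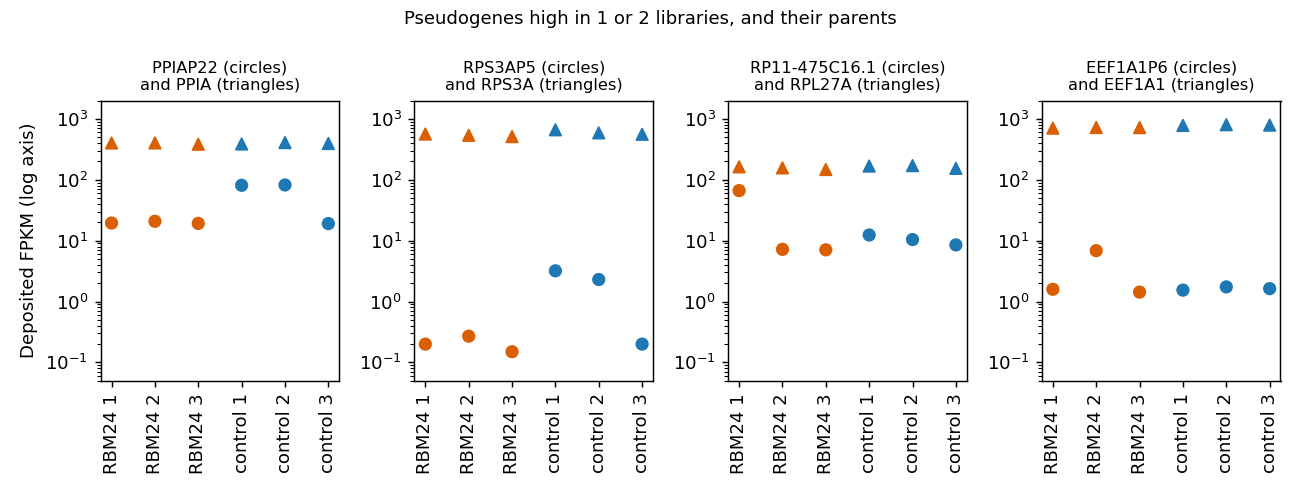
Deposited FPKM (log axis) of 4 pseudogenes (circles) and their parents (triangles) in the 3 RBM24 libraries (orange) and the 3 control libraries (blue). PPIAP22 and RPS3AP5 are high in control libraries 1 and 2, RP11-475C16.1 in RBM24 library 1 and EEF1A1P6 in RBM24 library 2, and the triangles show no such jump.

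In the comparison of RBM24 overexpression with control plasmid, 0 of the 150 members rose and 3 fell, PPIAP22, RPS3AP5 and RPSAP47 (edgeR quasi-likelihood test, Benjamini-Hochberg adjusted over 17887 genes, threshold 0.05). That is 2.00% of the members, against 1.54% of all tested genes called in either direction and 0.682% called lower; 0.855% were called higher. At an unadjusted p under 0.05 there were 4 members higher and 30 lower, against 6.62% of all tested genes higher and 6.40% lower; 24 of the 30 matched a ribosomal protein gene. DESeq2 called 0 higher and 1 lower, RPSAP47, among the 103 members to which it gave an adjusted p. The share of all genes that DESeq2 called was not determined. All 150 members passed the filter on low counts, but they were chosen by their level over these same libraries. RPS3AP5, 1 of the 3 called, reached the list only through its level in control libraries 1 and 2, given below.

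RPS3AP5 was lower with RBM24 by a log2 fold change of -3.23 (SE 0.659, edgeR adjusted p = 0.0184), and PPIAP22 by -1.66 (SE 0.340, edgeR adjusted p = 0.0190). Both rest on control libraries 1 and 2. RPS3AP5 also owes its place among the members to these libraries, with 2.87 and 2.03 CPM there. It had 0.174, 0.243 and 0.132 CPM in the RBM24 libraries and 0.177 CPM in control library 3. The last member of the list had a mean of 0.684 CPM. The call of RPS3AP5 is therefore not independent of how the members were chosen. Without control library 1 neither RPS3AP5 nor PPIAP22 passed, with an edgeR adjusted p of 0.0747 for RPS3AP5 and 0.0724 for PPIAP22. Without control library 2 PPIAP22 had 0.0565, while RPS3AP5 still passed with 0.0388. DESeq2 gave no adjusted p for RPS3AP5 and 0.147 for PPIAP22. RPS3AP5 also had adjusted p = 0.0539 without RBM24 library 1 and 0.0643 without RBM24 library 2, and PPIAP22 had 0.0742 without RBM24 library 2, by the same test.

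RPSAP47, a copy of RPSA, which encodes a small subunit protein that also serves as a laminin receptor, was the 1 member called whose groups did not overlap. It had 12.6, 12.3 and 11.9 CPM in the RBM24 libraries, against 14.6, 16.4 and 14.7 CPM in the control libraries. The log2 fold change was -0.34 (SE 0.0756, edgeR adjusted p = 0.0315). It shared no 150-base window with another gene. Its adjusted p was 0.0999 without control library 2 and 0.0884, 0.142 and 0.103 without RBM24 libraries 1, 2 and 3. RPSA itself had a log2 fold change of -0.15 (edgeR adjusted p = 0.298), and the other RPSA copies RPSAP58, RPSAP15 and RPSAP9 had -0.12, -0.24 and -0.20, none past the threshold.

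Across the members the fold changes leaned downward. The median log2 fold change was -0.12, with 105 negative and 45 positive, against a median of -0.00 over all tested genes, of which 51.4% were negative, and 0.04 over the other 266 processed pseudogenes. All 16 members named for small subunit proteins and 22 of 26 named for large subunit proteins were negative, with medians of -0.31 and -0.28; 2 of the 16 and 0 of the 26 passed the test. By sequence, 58 of the 67 members matching a ribosomal protein gene were negative (median -0.26), against 47 of the other 83 (median -0.03). Without control library 1 the medians were -0.07 for the 67 and 0.01 for the other 83, with 50 of 67 and 40 of 83 negative. Without control library 2 they were -0.25 and -0.01, with 57 of 67 and 43 of 83 negative. Without control library 3 they were -0.38 and -0.04, with 63 of 67 and 47 of 83 negative. The copies of translation factors had a median of 0.10 over 7 members, with 0 called, those of ferritin -0.05 over 5, and those of RNA-binding proteins -0.04 over 6.

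The groups did not overlap in 3 members higher with RBM24 (2.00%, against 12.8% of all tested genes) and in 16 lower (10.7%, against 5.31%). The 3 higher were MT1P3, a copy from the metallothionein family of metal-binding proteins, PPP1R14BP3 and RP11-69L16.5, which matched RPS3. MT1P3 had 0.930, 0.747 and 0.941 CPM in the RBM24 libraries, against 0.446, 0.653 and 0.386 CPM in the control libraries, and did not pass the test (log2 fold change 0.80, SE 0.245, edgeR adjusted p = 0.135). Of the 16 lower, 12 matched a ribosomal protein gene, 6 of them among those high in control library 1. The other 4 included EEF1A1P5, ZNF204P and FBXW4P1. EEF1A1P5 had a log2 fold change of -0.21 (SE 0.0617, edgeR adjusted p = 0.126), and EEF1A1 itself one of -0.18.

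Summed, the members took 0.101%, 0.0953% and 0.0913% of the counts in the RBM24 libraries, against 0.115%, 0.108% and 0.0939% in the control libraries. The means were 0.0960 ± 0.00506% in the RBM24 libraries and 0.106 ± 0.0107% in the control libraries (SD, n = 3 each), and the groups overlapped. Without control library 1 the control mean was 0.101%.

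The parents moved little. Of 70 distinct parents named by the members, 1 rose and 0 fell, against 0.855% of all tested genes called higher and 0.682% called lower. The 1 was TOB2, which encodes an antiproliferative protein, with a log2 fold change of 0.27 (edgeR adjusted p = 0.0125). The range over the 70 was -0.20 to 0.27, and 55 were negative, against 51.4% of all tested genes. Of 27 ribosomal protein parents 26 were negative, with a median of -0.12. PPIA had -0.03 (edgeR adjusted p = 0.864) and RPS3A -0.20 (adjusted p = 0.232).

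The difference between copy and parent was tested directly with limma on the log2 ratio of the 2 levels in each library, over 284 pairs of pseudogene and named parent. None of the 100 pairs of members was called (0), against 0.352% of all pairs, and the smallest adjusted p was 0.741. At an unadjusted p under 0.05 there were 2 pairs lower and 0 higher. These were RPS3AP5, with a log2 ratio lower by -2.18 (SE 0.866), and PPIAP22, by -1.34 (SE 0.541). Both were called without control library 3, and 0 pairs without any other library; leaving out the control library that lay with the RBM24 libraries restates the pattern for which the pair was described. The median ratio change was -0.08 over the 100 pairs and 0.07 over the other 184.

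**Figure D5:**
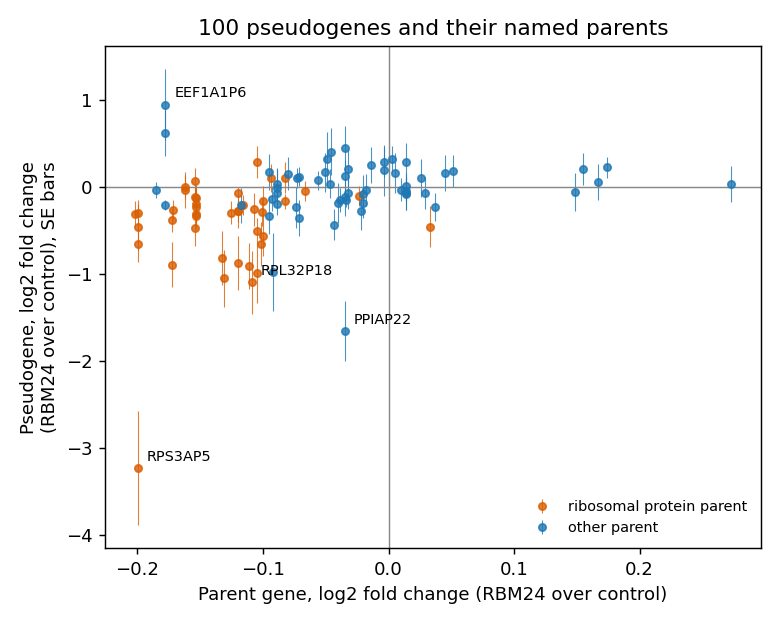
Log2 fold change (RBM24 over control, edgeR) of 100 pseudogenes against that of their named parents, with SE bars on the pseudogene. The parents span -0.20 to 0.27, while the pseudogenes span -3.23 to 0.95, with RPS3AP5 and PPIAP22 lowest and EEF1A1P6 highest.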

How the data were processed

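The RNA of 3 RBM24 overexpression and 3 control plasmid samples of CAL27 cells was sequenced. Reads were aligned by the authors to GRCh38 with HISAT2, per the submitters' processing notes; the counter, its annotation and its use of strand are not stated there. The authors deposited raw counts, which are whole numbers, and the deposited FPKM table holds the authors' values per length and library. Columns marked NC were read as control plasmid.

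CPM divides a count by the library's sum. Tests used edgeR 4.0.16 (filterByExpr, TMM factors between 0.976 and 1.02, group only, 4 residual degrees of freedom) in R 4.3.3 on all genes; 17887 were tested, with a biological coefficient of variation of 0.0645. Ratios of copy to parent were tested with limma 3.58.1. Parents were taken from names, or by BLAST+ 2.17.0 (word size 15, plus strand) against GENCODE 29 protein-coding transcripts. DESeq2 1.42.0 and limma on log2(FPKM + 1) were among the alternatives. Methods were tested on simulated data. Chi-square per gene between libraries was at least 4.52, so no pair of libraries was the same library.

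The members, groups and naming rule were chosen with earlier results of these data known. The naming rule took the 12 most abundant members, those called and the 3 with the largest departures. It also took the most abundant of each family of at least 3 members and the 3 on each side of the limit. Of these, RP11-543P15.1, HNRNPA1P10 and UQCRFS1P1 are not described above. Their log2 fold changes were -0.34, -0.07 and 0.17 (edgeR adjusted p = 0.325, 0.834 and 0.811). The others named, among them EEF1A1P6, RPL13AP25, RPL3P4, GMPSP1, members whose groups did not overlap, further copies of shared parents and copies above their parents, were chosen after their values were seen. A member among those whose groups did not overlap is not reported here by name.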

Additional observations from a re-analysis of the deposited data

How the results depend on the processing

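The count of members lower with RBM24, 3 as reported, was 3 with DESeq2 size factors, with total counts only, at a mean count of 50 or more, and without members overlapping a higher gene. It was 22 without a low-count filter (19 matching a ribosomal protein gene; 1.05% of 32353 genes were lower), where 3 were higher (0.943% of genes), 1 of 103 with DESeq2, 0 with limma on log2(FPKM + 1), on log2(FPKM + 0.1) and on log2(FPKM + 1) without a filter, and 6 with the replicate number as a block. With 1 library left out it lay between 0 (without RBM24 library 2) and 12 (without control library 3; 11 matching a ribosomal protein gene; 1.09% of genes were lower), with 1 without control library 1 or RBM24 library 1; 0 were higher. Where no share of all genes stands beside a count, as for the block and DESeq2, that share was not determined. Whether those changes in number are particular to the members was not tested, and neither were the causes. Deviations from the group mean correlated at 0.00724, 0.0555 and -0.000390 between same-numbered libraries. Between different-numbered libraries they correlated at -0.109 to 0.0914. A pairing by number was thus not seen, but with 3 libraries a group these values cannot exclude one. The block kept the 3 calls. No pair with a parent was called in any alternative but 1, where 2 were (range 0 to 2 over left-out libraries). RCN1P2, at -0.04, turned to 0.00142, 0.00176 and 0.00142 with the FPKM settings, in the order above. With libraries left out in turn, the log2 fold change crossed 0 for 6 of the 20 members named by the rule: between -0.11 and 0.0821 for RCN1P2, -0.17 and 0.0818 for RPL13P12, -0.0633 and 0.0860 for FTH1P8, -0.0128 and 0.13 for DFFBP1, -0.58 (without RBM24 library 1) and 1.81 for RP11-475C16.1, and -1.41 and 0.32 (without control library 1) for RP11-592N21.1. EEF1A1P6, named after its values were seen, had -0.14 without RBM24 library 2. The 22 members high in control library 1 numbered 21 to 23 under alternatives chosen after seeing the data. Low counts limit the members near the end of the list; how far reads shared with parents enter the counts was not tested.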
